A study of Rattus norvegicus with 4 samples.

Results

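The genes described here make cholesterol and fatty acids, control that synthesis, or carry and store the lipid, in the 2 layers of the rat crista ampullaris, the patch of sensory epithelium at the end of each semicircular canal that responds to turning of the head. The set of 36 genes was given by name: the sterol pathway from acetyl-CoA to cholesterol, its regulators, lipoprotein genes and the enzymes of fatty acid synthesis. A probe was named here for 34 of them, on 50 probes, out of 12323 genes with a named probe on the array. For Srebf1 and Elovl1 no probe could be named here. At least 1 probe of 26 members was detected on 2 or more of the 4 arrays and was tested, among 7768 genes tested in all.

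Laser capture took the superficial part of the rat epithelium first, which holds hair cells of types I and II with cytoplasm of supporting cells between them, and then, separately, the cell bodies of the supporting cells beneath. Hair cells were recognised by their stereociliary tuft, the calyceal nerve ending around them and the outer position of their nucleus. Polyadenylated RNA of each layer was amplified linearly and hybridised to 2 oligonucleotide arrays, each read in 1 colour. The labels give no strain, age, sex, treatment or genotype, and leave unsaid whether the 2 arrays of a layer stand for different animals or captures. The p-values therefore measure only the spread between these arrays, which may be technical. The hair cell layer arrays were brighter, with a median raw intensity of 17.0 to 26.5 beside 12.0 to 12.1, and 45.6% to 48.8% of their gene probes were detected beside 39.7% to 39.8%. With 2 arrays per layer, precision is limited by their number. Values below are quantile-normalized intensities, in the arrays' own units, given as replicates 1 and 2 of each layer. A difference is on the log2 scale, supporting minus hair cell layer, ± SE from limma (2 arrays per layer), and a gene was called when its Benjamini-Hochberg adjusted p over all 16483 tested probes was under 0.05.

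Cells build cholesterol from acetyl-CoA through mevalonate, isoprenoids, squalene and lanosterol. The transcription factor SREBP-2, encoded by Srebf2, is escorted by Scap out of the endoplasmic reticulum when sterol is low and switches on most genes of the route, while Insig1 and Insig2 hold the complex back when sterol is high. SREBP-1, encoded by Srebf1, acts mainly on fatty acid synthesis, which starts from citrate-derived acetyl-CoA and ends in chain elongation and desaturation. Cholesterol is a major part of plasma membranes and myelin, and it shapes the membranes in which ion channels and synaptic proteins sit.

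Most of the sterol synthesis genes had their higher level in the hair cell layer, and the fatty acid genes went both ways. Of the 26 tested members 18 were higher in the hair cell layer, 4 were lower there and 4 did not pass the test. Over all tested genes 65.4% were called, 37.2% as higher and 28.2% as lower in the hair cell layer, and over all tested probes 67.4%, as 33.9% and 33.5%. In bulk tissue such as this, fewer cells of a type and less RNA per cell cannot be told apart. The median difference of the members was -0.60, beside -0.10 over all tested genes. In 6 of the 18 members the brightest tested probe was not detected on either supporting cell layer array; dimmer probes of Lss and Insig2 were detected on 1 of them. A gene detected in 1 layer alone passed the filter through the layer where it was bright, so its call is a description. Among the 20 members detected on all 4 arrays, 12 were higher and 4 were lower in the hair cell layer. Of 5750 genes detected on all 4 arrays 65.7% were called, 34.1% and 31.5% in those directions. The median difference was -0.49 for these 20 members and 0.02 for these 5750 genes. The count of 18 was 11 without hair cell layer replicate 1, 11 with median scaling of the arrays, 11 without the filter on dim probes and 7 on the values normalized by the scanner software, and the count of 4 was 2 without that replicate, without the filter and on the scanner values. Of all 16483 tested probes, 4453 were higher and 4247 lower in the hair cell layer with median scaling. On the scanner values 3639 were higher and 3232 lower. Without the filter, with 34 members tested, 3377 of 33842 probes were higher and 3277 lower. Both arrays of 1 layer lay above both of the other in all 26 tested members, and in 89.2% of all tested genes.

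**Figure D1:**
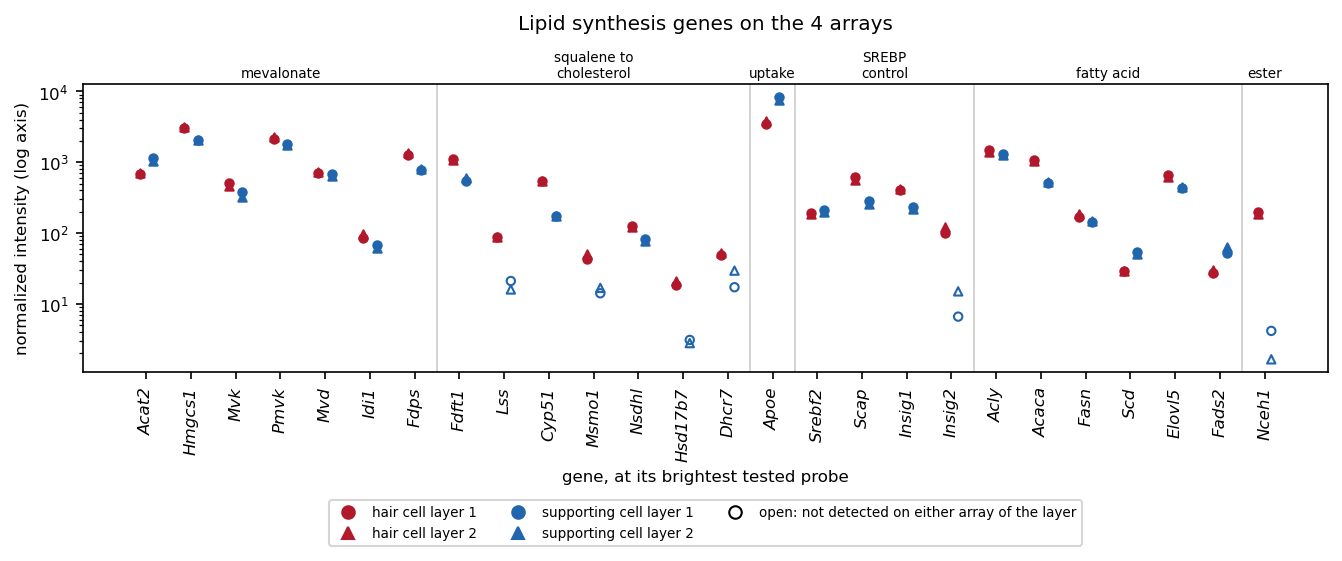
Normalized intensity (log axis) of the 26 tested members at their brightest tested probe, grouped by role, with 1 point per array; open points were not detected on either array of that layer. In 21 members both hair cell layer arrays lie above both supporting cell layer arrays, and Apoe, Acat2, Scd, Fads2 and Srebf2 lie the other way.

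The promoters of these genes are shown first, since SREBP acts at promoters together with the factors NF-Y, which binds CCAAT, and Sp1, which binds GGGCGG. RefSeq promoters (GRCr8) were found for 30 members, 8 of them untested or without a probe, and the 250 bases before each start were searched on both strands, with overlaps allowed. CCAAT occurred in 22 of the 30, in the promoters of 12 of the 15 hair-cell-layer-higher members that had one and in 1 of 4 supporting-cell-layer-higher members, Apoe, at 1 of its 3 listed starts. CCAAT also occurred in all 3 members with a promoter that did not pass the test, Mvd, Srebf2 and Acly. It was absent in Cyp51, Dhcr7 and Scap, all higher in the hair cell layer. Its share was 78.6% of 14 sterol synthesis members, 57.1% of 7 fatty acid members, 36.1% of all 27457 genes in the table and 36% of tested genes. GGGCGG was found in 73.3% of the members, 59.9% of tested genes and 33.5% of all genes. By direction it was found in 10 of 15 members higher in the hair cell layer and 3 of 4 higher in the supporting cell layer. The literal core TCACNCCAC of the sterol regulatory element occurred in 0 of 30 members' promoters and in 1.09% of all genes, which says only that these letters are not in these windows. A match is a description of letters and not a bound site. Below are 4 promoters of sterol enzymes higher in the hair cell layer with at least 2 matches each and, for contrast, that of the desaturase gene Fads2, higher in the supporting cell layer, with none; they were chosen after the matches were seen. They read 5′ to 3′ along the gene and end just before the start, and capitals mark CCAAT or its reverse complement.
Fdps (chr2:176804817-176805066, minus strand): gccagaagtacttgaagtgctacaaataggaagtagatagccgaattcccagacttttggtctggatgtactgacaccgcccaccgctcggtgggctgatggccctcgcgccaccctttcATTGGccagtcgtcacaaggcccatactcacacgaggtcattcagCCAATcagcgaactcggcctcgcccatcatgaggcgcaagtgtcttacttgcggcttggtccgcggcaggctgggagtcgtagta
Msmo1 (chr16:29746863-29747112, plus strand): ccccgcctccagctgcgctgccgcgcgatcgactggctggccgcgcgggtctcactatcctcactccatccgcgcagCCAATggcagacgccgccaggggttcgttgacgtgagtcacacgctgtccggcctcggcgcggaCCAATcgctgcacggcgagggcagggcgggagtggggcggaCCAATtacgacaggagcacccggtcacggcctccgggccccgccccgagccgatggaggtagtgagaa
Nsdhl (chrX:155817110-155817359, plus strand): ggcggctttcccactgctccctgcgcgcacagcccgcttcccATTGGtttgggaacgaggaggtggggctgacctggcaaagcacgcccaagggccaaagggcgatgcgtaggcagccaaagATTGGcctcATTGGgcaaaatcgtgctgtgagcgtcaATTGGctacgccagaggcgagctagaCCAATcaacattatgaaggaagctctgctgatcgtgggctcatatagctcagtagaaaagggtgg
Hsd17b7 (chr13:84722755-84723004, minus strand): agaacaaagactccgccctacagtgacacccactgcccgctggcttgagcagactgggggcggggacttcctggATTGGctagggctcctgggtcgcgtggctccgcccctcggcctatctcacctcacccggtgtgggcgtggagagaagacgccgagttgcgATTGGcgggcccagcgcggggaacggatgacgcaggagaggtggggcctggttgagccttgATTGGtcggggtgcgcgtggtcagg
Fads2 (chr1:216172034-216172283, minus strand): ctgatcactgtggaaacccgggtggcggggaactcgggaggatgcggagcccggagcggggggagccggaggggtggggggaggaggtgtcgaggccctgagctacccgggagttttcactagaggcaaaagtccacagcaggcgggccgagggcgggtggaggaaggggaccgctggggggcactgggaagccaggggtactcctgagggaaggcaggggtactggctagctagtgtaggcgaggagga
Nsdhl has 5 matches, Msmo1 and Hsd17b7 have 3 each and Fdps has 2. In Msmo1 all 3 lie on the gene's own strand, at 64, 105 and 169 bases before the start counted to the nearer edge. In Hsd17b7 all 3 lie on the other strand.

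The early, mevalonate part of the route differed by small amounts. Of 7 tested enzymes 5 were called with the hair cell layer higher, by differences between -0.31 and -0.73, and all 7 were detected on all 4 arrays. Their median was -0.48. Over all tested genes 37.2% were called higher and 28.2% lower in the hair cell layer, with a median of -0.10. Hmgcs1 makes HMG-CoA, and its intensity was 3047 and 3161 in the hair cell layer and 2078 and 2083 in the supporting cell layer. The layers did not overlap, with a difference of -0.58 ± 0.07 (adjusted p = 0.00750 by limma). Its second probe was not detected on any array. Fdps makes farnesyl diphosphate, the branch point to sterols and protein prenylation. Its values were 1281 and 1340 against 781 and 798, a difference of -0.73 ± 0.07 (adjusted p = 0.00495 by limma). Hmgcs1 and Fdps lost the call with median scaling (adjusted p = 0.324 and 0.0906), on the scanner values (0.569 and 0.282) and without the filter on dim probes (0.0794 and 0.0552). Mevalonate kinase Mvk measured 514 and 467 against 383 and 320 (-0.48 ± 0.13), and phosphomevalonate kinase Pmvk 2137 and 2270 against 1788 and 1771 (-0.31 ± 0.08). The isopentenyl diphosphate isomerase Idi1 measured 85.2 and 96.4 against 67.7 and 60.8 (-0.50 ± 0.11). These last 3 lie close to the threshold and lost the call under those 3 settings too, with adjusted p of 0.0458, 0.0358 and 0.0302 by limma. Leaving out any 1 array took Pmvk (0.0857 to 0.125) and Idi1 (0.0506 to 0.114) past 0.05, as did leaving out either hair cell layer array (0.179 and 0.119) or supporting cell layer replicate 2 (0.101) for Mvk. In all, Mvk, Pmvk and Idi1 kept the call in 8, 7 and 6 of the 16 alternatives. The diphosphomevalonate decarboxylase Mvd did not pass the test at either of its probes, with 702 and 717 against 687 and 629 at the brighter (-0.11 ± 0.08, adjusted p = 0.312 by limma).

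Acat2, which joins 2 acetyl-CoA units at the entry to the route, went the other way. Its intensity was 673 and 694 in the hair cell layer and 1136 and 1040 in the supporting cell layer, a difference of 0.67 ± 0.09 (adjusted p = 0.00822 by limma). It was the only tested sterol synthesis member of the set called higher in the supporting cell layer after normalization. Its raw intensities overlapped, at 893 and 816 in the hair cell layer and 896 and 766 in the supporting cell layer. Its adjusted p was 0.0552 without hair cell layer replicate 1, 0.0609 with median scaling, 0.175 on the scanner values and 0.0698 without the filter on dim probes.

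The second stage, from squalene to cholesterol, held the larger differences. All 7 tested enzymes were called higher in the hair cell layer, but 4 of them were not detected on either supporting cell layer array at their brightest probe, and have a lower limit of fold (3) or no fold (Hsd17b7). The median difference of the 7 was -1.60, or -0.86 with 3 at their limits and Hsd17b7 at 0. Squalene synthase Fdft1, the first enzyme committed to sterols, measured 1111 and 1074 in the hair cell layer and 542 and 600 in the supporting cell layer. The difference was -0.94 ± 0.09 (adjusted p = 0.00461 by limma), and its second probe gave 392 and 417 against 126 and 126 (-1.68 ± 0.08). On the scanner values its adjusted p was 0.144. The lanosterol demethylase Cyp51 had, at the brightest probes, the largest difference of the sterol enzymes detected on all 4 arrays, with 535 and 541 against 174 and 173. That is a difference of -1.63 ± 0.07, or 3.10-fold (adjusted p = 0.00144 by limma), and it was called in all 16 alternatives. Nsdhl, which removes the C4 carboxyl group, measured 124 and 122 against 83.4 and 76.3 (-0.62 ± 0.08, adjusted p = 0.00949 by limma). Its adjusted p was 0.0601 and 0.0552 without hair cell layer replicates 1 and 2, 0.197 with median scaling, 0.441 on the scanner values and 0.0784 without the filter on dim probes.

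At their brightest probe the remaining 4 enzymes of this stage were detected on both arrays of the hair cell layer and not in the other layer. At these probes they passed the filter through the hair cell layer alone, so their calls and adjusted p are descriptions. The lowest normalized signal that counted as detected was 13.9 and 18.5 on the 2 arrays of the hair cell layer, and 26.6 and 28.3 on those of the supporting cell layer. A limit of fold compares the bright layer with these floors or with the probe's own dim signal where that is higher, and is approximate. Lanosterol synthase Lss, which closes the sterol rings, measured 87.4 and 86.7 against 21.0 and 15.97 and was brighter in the hair cell layer by at least 3.17-fold (adjusted p = 0.00292 by limma). A second Lss probe gave 138 and 150 against 6.22 and 13.6, at least 5.24-fold, while the third gave 35.7 and 36.5 against 42.2 and 27.9 and did not pass (-0.07 ± 0.24). That probe was detected on supporting cell layer replicate 1, at 42.2, and its layers overlapped, so the probes of Lss disagree. The methylsterol monooxygenase Msmo1 measured 43.3 and 50.2 against 14.1 and 16.8, at least 1.70-fold (adjusted p = 0.00407 by limma). The 7-dehydrocholesterol reductase Dhcr7, the last step of one branch, measured 49.1 and 52.5 against 17.2 and 29.4, at least 1.81-fold (adjusted p = 0.0426 by limma; 0.156 and 0.173 without hair cell layer replicates 1 and 2, 0.120 without the filter on dim probes). In all, Dhcr7 kept its call in 11 of the 15 alternatives that could be fitted for it. Hsd17b7, the ketosteroid reductase of the C4 demethylation complex, measured 18.6 and 21.0 against 3.09 and 2.79 and was called (adjusted p = 0.00142 by limma). Its hair cell layer values lie below the supporting cell layer floors, so no fold is given.

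Squalene epoxidase Sqle and the sterol isomerase Ebp were not detected on any array, at 2 probes and 1 probe, and were not tested. The C5 desaturase Sc5d was detected on 1 array alone. The same Sc5d probe read 76.0 on hair cell layer replicate 1 and 11.2 on replicate 2, beside 12.6 and 5.05 in the supporting cell layer, so nothing can be said of its direction.

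**Figure D2:**
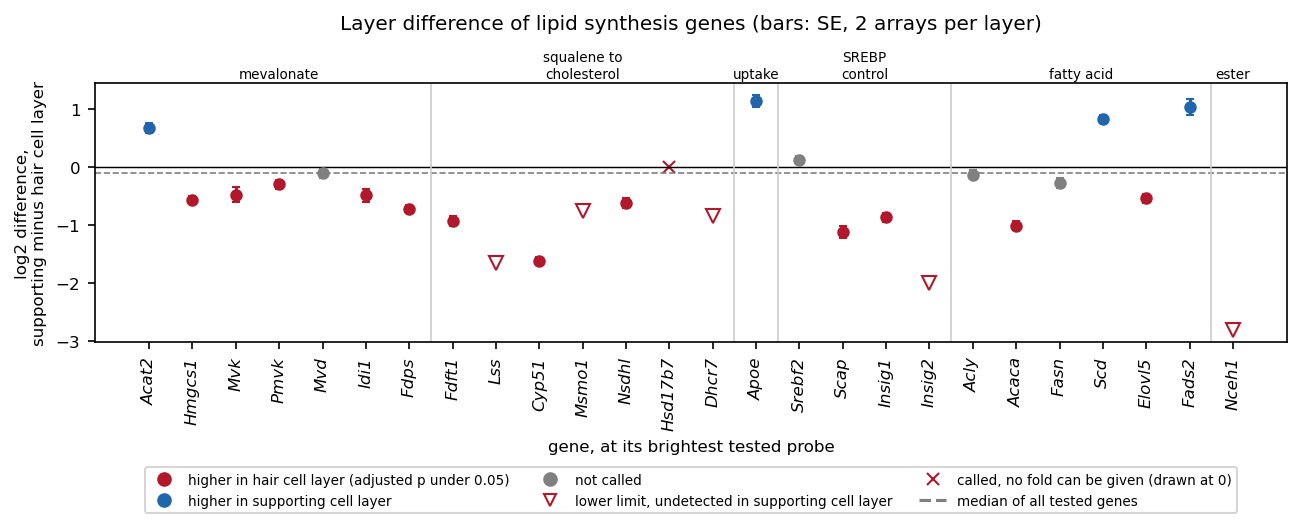
Log2 difference (supporting minus hair cell layer) of the 26 tested members, with bars for the SE over 2 arrays per layer; open triangles are lower limits of the difference for genes undetected in the supporting cell layer, and the dashed line is the median of all tested genes, -0.10. The cross marks Hsd17b7, called but with no fold, drawn at 0. The other sterol enzymes lie below 0 except Acat2, and the 6 fatty acid genes spread from -1.02 to 1.02.

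Of the SREBP control genes, the sterol sensors differed and the transcription factor did not pass the test. Srebf2 itself measured 189 and 187 in the hair cell layer and 208 and 200 in the supporting cell layer (0.12 ± 0.07, adjusted p = 0.216 by limma). Scap, its escort, measured 616 and 569 against 286 and 256, a difference of -1.13 ± 0.10 (adjusted p = 0.00409 by limma). Insig1, an SREBP target that also restrains SREBP, measured 406 and 419 against 231 and 220 (-0.87 ± 0.07, adjusted p = 0.00368 by limma). Scap and Insig1 were each called in 15 of 16 alternatives, the exception being the scanner software's own values (0.0594 and 0.187). Insig2 measured 101 and 120 against 6.60 and 15.01, not detected in the supporting cell layer, and so at least 4.02-fold brighter in the hair cell layer (adjusted p = 0.00960 by limma; 0.0630 and 0.0677 without hair cell layer replicates 1 and 2). A second Insig2 probe, at 25.5 and 29.0 against 7.60 and 12.5, was called the same way but allows no fold. Both of these probes passed the filter through the hair cell layer alone, so their calls are descriptions. The third went the other way, with 10.3 and 18.0 against 18.1 and 48.5. It was detected on supporting cell layer replicate 2 alone and was not tested, so the probes of Insig2 disagree.

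Apoe, an apolipoprotein of the particles that carry cholesterol between cells, was higher in the supporting cell layer. It measured 3445 and 3798 in the hair cell layer and 8307 and 7595 in the supporting cell layer, a difference of 1.13 ± 0.10 (adjusted p = 0.00388 by limma). Its raw intensities at this probe, 4371 and 4193 against 7300 and 6885, did not overlap. Its second probe gave 268 and 269 against 779 and 795 (1.55 ± 0.07), and Apoe was called in all 16 alternatives. The lipoprotein receptor gene Vldlr was not detected on any array. Nceh1, which hydrolyses stored cholesteryl esters, had the highest limit of fold in the set. It measured 200 and 187 in the hair cell layer and, undetected, 4.15 and 1.65 in the supporting cell layer, at least 7.04-fold (adjusted p = 0.00358 by limma). Nceh1 passed the filter through the hair cell layer alone, so its call is a description. Soat1, which makes the esters, was not detected on any array.

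Fatty acid synthesis did not go one way: of 6 tested members, 2 were higher in the hair cell layer, 2 were lower there and 2 did not pass the test, with a median difference of -0.21. The share called lies near the 65.4% over all tested genes, so the count is not a result about these genes. Acaca, the acetyl-CoA carboxylase that commits carbon to fatty acids, measured 1060 and 1025 in the hair cell layer and 502 and 529 in the supporting cell layer. Its difference was -1.02 ± 0.08 (adjusted p = 0.00292 by limma), and its second probe was not detected. On the scanner values its adjusted p was 0.0996. The elongase Elovl5, which acts on polyunsaturated chains, measured 667 and 616 against 437 and 440 (-0.55 ± 0.08, adjusted p = 0.0114 by limma; 0.0551 without hair cell layer replicate 1, 0.212 with median scaling, 0.461 on the scanner values and 0.0938 without the filter on dim probes). ATP citrate lyase Acly, which supplies cytosolic acetyl-CoA, measured 1471 and 1380 against 1317 and 1271 (-0.14 ± 0.08, adjusted p = 0.198 by limma). Fatty acid synthase Fasn measured 170 and 184 against 141 and 148 (-0.29 ± 0.09). Its adjusted p of 0.0550 by limma missed the threshold, and it passed in 5 of 16 alternatives.

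After normalization the tested desaturases lay on the supporting cell side. The stearoyl-CoA desaturase Scd, which makes monounsaturated chains, measured 29.4 and 29.3 in the hair cell layer and 53.1 and 51.0 in the supporting cell layer (0.83 ± 0.07, adjusted p = 0.00370 by limma; 0.0913 on the scanner values). Its close paralogue Scd2, outside the set, measured 539 and 518 against 733 and 789 (0.53 ± 0.08, adjusted p = 0.0129 by limma). Signal shared between these near-identical transcripts was not tested. Fads2, the first desaturase of the polyunsaturated route, measured 27.3 and 29.6 against 52.2 and 63.6 (1.02 ± 0.14, adjusted p = 0.00922 by limma; 0.0632 and 0.0530 without hair cell layer replicates 1 and 2, 0.0529 without the filter on dim probes). Its second probe differed the same way, by 1.42 ± 0.13. Fads1 and Acacb were not detected on any array. Elovl6 was detected on hair cell layer replicate 2 alone, at 23.4, and was not tested.

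For the 7 members with several tested probes, the fitted differences of the 8 further probes had the sign of the brightest probe, and 5 of them were called. For 3 of the 8, of Idi1, Lss and Insig2, that sign says little, since they passed the filter through the hair cell layer alone, and the layers overlapped at the Idi1 probe. The sizes did not always match, as the 3 Lss probes show. Leaving the choice of probe aside by averaging them, 17 members were higher and 4 lower in the hair cell layer.

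**Figure D3:**
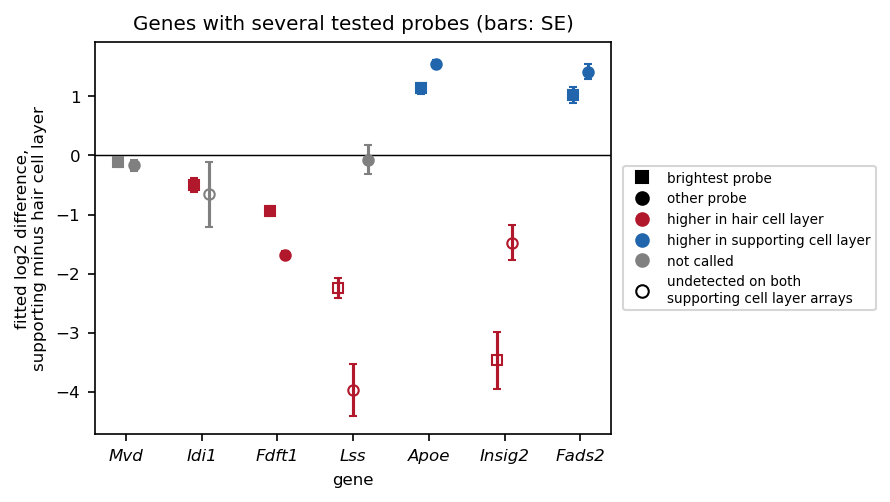
Fitted log2 difference (supporting minus hair cell layer) at each tested probe of the 7 members with several, with bars for the SE; open symbols were undetected on both supporting cell layer arrays, so that their fitted value is no measure of size. All tested probes of a gene lie on the same side of 0, and 2 Lss probes lie far below the third.

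Other genes of the same pathways give the setting. Of 25 tested genes of sterol handling outside the set, 12 were higher and 3 lower in the hair cell layer, with a median of -0.42. Over all tested genes 37.2% were higher and 28.2% lower there, with a median of -0.10. Of the 12, 4 were undetected in the supporting cell layer and have no order among them. They were lipoprotein lipase Lpl (at least 1.52-fold) and cholesterol 25-hydroxylase Ch25h (at least 1.35-fold). The others were Erlin2 (at least 2.06-fold) and Erlin1 (at least 4.21-fold), proteins of the endoplasmic reticulum. The Erlin1 limit rests on 1 supporting cell layer array, since its spot on the other was left out. Among the called genes, the largest difference measured on both sides was that of the cholesterol exporter Abcg1 (-1.23 ± 0.10, also from 1 supporting cell layer array). Those called toward the supporting cell layer were the cholesterol hydroxylase Cyp46a1 (1.05 ± 0.13), the sterol carrier Stard4 (0.90 ± 0.11) and the oxysterol binding protein Osbp (0.66 ± 0.08).

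Of 17 tested genes of fatty acid handling outside the set, 9 were higher and 4 lower in the hair cell layer, with a median of -0.39. The shares over all tested genes were 37.2% and 28.2%. Acetyl-CoA synthetase Acss2 measured 1551 and 1537 against 718 and 732 (-1.09 ± 0.07), and the acyl-CoA synthetase Acsl1 differed by -1.18 ± 0.13. The related Acsl5 and Acsl6 were undetected in the supporting cell layer and at least 2.32-fold and 1.04-fold brighter in the hair cell layer. Higher in the supporting cell layer were Lpin1 (1.62 ± 0.30, detected on 1 of the 2 hair cell layer arrays), the fatty acid carrier Fabp7 (1.19 ± 0.30), Scd2 and malic enzyme Me1 (0.35 ± 0.07), which supplies NADPH.

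The lists of cell type markers did not all go the same way. Over all tested genes 37.2% were higher and 28.2% lower in the hair cell layer. The counts of the supporting cell, myelin and macrophage lists below lie near these shares and are no result about those cells. Hair cell markers were higher in the hair cell layer for 16 of 18 tested genes, and the summed intensity of the list was 15487 to 16062 there and 6505 to 6682 in the other; Ptprq and Tmc1 were not detected. Supporting cell markers went both ways, with 8 of 19 tested higher and 7 lower in the hair cell layer, so the second layer is named here by how it was captured. Their summed intensity was 27692 to 27844 and 25024 to 25913, and Hes1 and Hes5 were not detected. Myelin and Schwann cell genes, whose cells make much cholesterol, were divided: 5 of 12 tested were higher and 2 lower in the hair cell layer. Their summed intensity was 4681 to 4808 and 4639 to 4640. Pmp22 differed by -0.32 ± 0.07 and periaxin Prx by 0.93 ± 0.07, and Mbp, Mog, Mobp, Ngfr, Gfap and Ugt8 were not detected on any array. Macrophage and immune genes, which bear on Apoe, were called 4 of 10 in each direction, with a summed intensity of 943 to 977 and 683 to 767 (856 to 894 and 667 to 676 over the 8 with all 4 values), and Ptprc, C1qb, Lyz2, Cx3cr1 and Fcer1g were not detected. Cd68 was at least 1.503-fold brighter in the hair cell layer, and Csf1r differed by 1.05 ± 0.22, each with 1 supporting cell layer array left out.

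Vascular and connective tissue markers were mostly on the supporting cell side. Of all tested genes 28.2% were higher in that layer and 37.2% in the hair cell layer. Endothelial and pericyte markers were higher there for 8 of 10 tested genes, and connective tissue markers for 5 of 9, beside 1 and 2 higher in the hair cell layer. Their summed intensities were 927 to 991 and 1045 to 1062 in the hair cell layer and 1643 to 3089 and 2428 to 2493 in the supporting cell layer. The endothelial range holds a Cldn5 spot left out on 1 array; over the 9 genes with all 4 values it was 511 to 585 and 1618 to 1643. In the endothelial, neuronal and connective tissue lists 3 markers each were not detected on any array. Of 9 tested neuronal markers 3 were higher and 6 lower in the hair cell layer, where they summed to 1656 to 1662 beside 1997 to 2012. Both tested adipocyte genes, Cidec and Lipe, did not pass, and Adipoq, Lep, Fabp4 and Cfd were not detected on any array. The part of these cell types in the differences of the lipid genes was not tested.

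**Figure D4:**
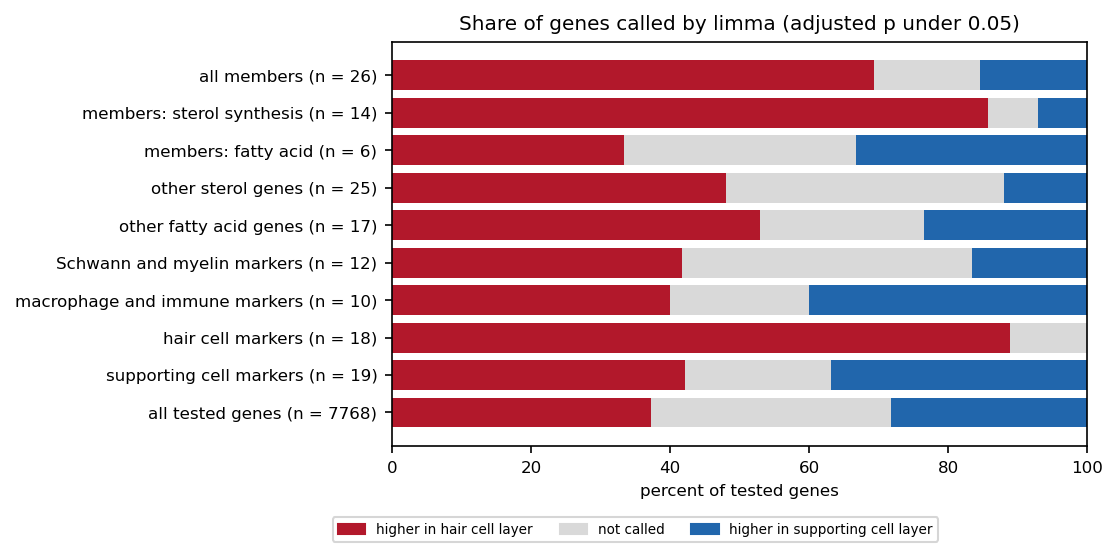
Percent of tested genes called by limma in each direction, for the members, for other genes of the same pathways, for cell type markers and for all tested genes, with the number tested beside each name. The sterol synthesis members (12 of 14) and the hair cell markers (16 of 18) have the longest bars on the hair cell side, where all tested genes reach 37.2%. At their brightest tested probe, 4 of the 14 and 5 of the 18 were undetected in the supporting cell layer. So were 1098 of all 7768 tested genes. Such genes passed the filter through the hair cell layer alone.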

How the data were processed

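The deposited scanner files give, for each spot, a background-corrected raw intensity, the same value scaled to the array median as normalized intensity, and a flag, per the file headers and the values. Quantification was by CodeLink Expression Analysis, per the file headers. The deposited series table repeats the normalized intensity. It served only to match 35125 platform probe IDs to scanner spots on 3 arrays, since the column of supporting cell layer replicate 2 is shifted (3 rows equal). Symbols came from the platform annotation (16721 probes), updated through GRCr8 RefSeq gene identifiers, or from RefSeq accessions (192). Probes with several genes or conflicting names stayed unnamed.

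Contaminated, irregular and failed spots and control spots were left out. Raw intensities of 33849 gene probes were quantile-normalized, raised to a floor of 0.1 of the median and taken to log2 in R 4.3.3. A probe detected (flag good or saturated) on 2 or more of 4 arrays was tested with limma 3.58.1 (lmFit, eBayes, two-sided, no block, prior degrees of freedom 1.31), and a gene was read at its brightest tested probe. The fit was tested on simulated data. All members are named. Of the 2 pathway lists, up to 4 called genes of largest fitted change in each direction are named, as is Abcg1, chosen after its value was seen. The rule allowed up to 4 from each marker list too; those lists are given mainly by counts, with Scd2, Pmp22, Mbp, Cd68, Csf1r, Prx, Cldn5, Cidec, Lipe and most undetected markers named. Some genes of the rule are not reported here. The members and lists were chosen with earlier results of these data known. The alternatives were other scalings, filters, floors and probe rules, an intensity trend, the replicate block and each array left out.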

Additional observations from a re-analysis of the deposited data

How the results depend on the processing

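No member changed sign in the 16 alternatives. Of the 22 called members, 5 (Lss, Cyp51, Msmo1, Apoe and Nceh1) were called in every alternative that could be fitted for them. At these probes Lss, Msmo1 and Nceh1 were undetected in the supporting cell layer and could not be fitted where detection on all 4 arrays is required. They passed the filter through the hair cell layer alone, so their calls are descriptions. The filters, the intensity trend and the replicate block leave the fitted differences of the members as they were, so there no sign could change. Probes undetected on an array drop out where detection on all 4 is required. Hsd17b7 had a difference of 0 once every value was raised to the highest detection limit, a choice made after seeing the data, as were the scalings on probes detected on all 4 arrays and on the 75th percentile. Main counts were 18 and 4 members and 5585 and 5527 probes, higher in the hair cell and the supporting cell layer. Median scaling gave 11 and 3 members and 4453 and 4247 probes. The scanner software's values gave 7 and 2 members and 3639 and 3232 probes, and moved the median difference of tested probes from 0.01 to 0.14. Without a filter on dim probes the counts were 11 and 2 members and 3377 and 3277 probes, with more probes to adjust over; with detection on all 4 arrays the counts were 13 and 4 members and 3598 and 4836 probes. Leaving out 1 array gave 11 to 16 and 2 to 4 members, and 3290 to 5526 and 3892 to 4483 probes, with fewer samples; the lone array is then assumed to vary like the other layer. With the replicate number as a block the counts were 14 and 4 members and 4428 and 4273 probes. Same-numbered arrays did not deviate together (correlation of deviations -0.00223). Arrays from 1 animal or capture need not deviate together, so this value cannot show whether the numbers are a pairing. The causes of the other changes were not tested. Signal over background limits the 8 members not tested for want of detection and the 6 with a limit or no fold.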
